A study of Mus musculus with 6 samples.

Results

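ADAM3 is a sperm membrane protein of the ADAM family (a disintegrin and metalloprotease) that male mice need for sperm to enter the oviduct and to bind the zona pellucida, and it reaches the sperm surface only if a set of other testis proteins is present. The 7 genes described here, out of 20060 named genes on the array, were grouped as candidate surface partners and modifying enzymes of that protein. Of them, the study names Tex101, Ly6k, Ace and Tpst2 in connection with ADAM3, and not Lypd4, Spaca4 or Tpst1. Tex101, Ly6k, Lypd4 and Spaca4 encode small Ly6/uPAR domain proteins held at the membrane by a glycosylphosphatidylinositol (GPI) anchor, Ace encodes angiotensin-converting enzyme, and Tpst1 and Tpst2 encode the tyrosylprotein sulfotransferases. They were taken by name, and every array probe carrying one of these names is reported, which gives 10 probes.

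The series compared testis RNA of 3 Prss55-/- and 3 wt male mice of mixed 129Sv/C57BL/6 background, aged 6 to 8 weeks, on 6 single-dye whole-genome arrays. Prss55 encodes a GPI-anchored serine protease of the testis, and the null allele was made in embryonic stem cells by homologous recombination with a neomycin cassette. Offspring came from crosses of heterozygous parents. The study examined ADAM3 in these mice, and the question taken here is whether the transcripts of these 7 genes differed in the testis as well. The 3 Prss55-/- arrays shared 1 slide and the wt arrays lay on the other 2 slides, so slide and genotype cannot be told apart.

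In background terms, TEX101 is a surface glycoprotein of germ cells that associates with LY6K, and loss of either protein leaves sperm without ADAM3 on their surface. LYPD4 and SPACA4 are other GPI-anchored sperm proteins that act in sperm migration or zona binding. The germinal form of ACE is transcribed in spermatids from a promoter inside the gene, shares the carboxy-terminal part of the somatic form made by endothelium, and releases TEX101 from maturing sperm. TPST1 and TPST2 are Golgi enzymes that add sulfate to tyrosines of secreted and membrane proteins, and males lacking TPST2 are infertile.

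The probes are 60 nucleotides long, and their sequences show which part of a transcript was read. Those printed here are the ones that fall in a recognisable feature of the protein family or of the transcript. They are 5′ to 3′ in the sense of the transcript, with positions in mm9, the build the scanner files name. The genes of the Ly6/uPAR members lie on the minus strand and Ace on the plus strand. Capitals mark, for Ly6k, the adjacent cysteine codons and the later cysteine-asparagine codons that close a Ly6 domain (bases 31 to 54 of the probe), for Lypd4 and Spaca4 the stop codon that ends the first reading frame, and for Tex101 the polyadenylation signal AATAAA. Nothing is capitalised in the Ace probe, whose first reading frame holds no stop codon.
Ly6k, chr15:74627529-74627588: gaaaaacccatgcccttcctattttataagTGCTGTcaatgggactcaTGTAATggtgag
Lypd4, bases 1 to 54 of the probe at chr7:25649704-25649763: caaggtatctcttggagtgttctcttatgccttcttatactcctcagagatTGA
Spaca4, bases 1 to 30 of the probe at chr7:52980533-52980592: ctgttgctgctgcttcaatactggctgTGA
Tex101, bases 31 to 60 of the probe at chr7:25453040-25453099: tgcatgtgtatttgacacAATAAAattagt
Ace, junction probe within chr11:105847371-105849357: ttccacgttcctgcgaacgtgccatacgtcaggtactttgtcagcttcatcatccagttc

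The reading frame of a probe was assumed to be the first and not taken from an annotation. No other frame of the Lypd4 or Ace junction probe holds a stop codon, and the Spaca4 and Ly6k probes each have an alternative frame without one. In the assumed frame, ahead of the stop codon, 6 of the 17 codons of the Lypd4 probe and 6 of the 9 codons of the Spaca4 probe were leucine codons. A hydrophobic end of this kind is the usual signal for GPI attachment, and the cell removes it when the anchor is added. The Ly6k probe reads the domain itself, and the Tex101 probe reads the end of the transcript. These probes therefore report total transcript that holds the probed stretch, not protein, anchoring or cleavage.

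Signals of 9 of the 10 probes exceeded background clearly on each of the 6 arrays, and these 9 probes, which covered all 7 genes, were tested. No member differed in abundance between Prss55-/- and wt testis at an adjusted p below 0.05 (limma with Benjamini-Hochberg adjustment over 28606 probes). Past that threshold were 0 of 9 member probes, against a background of 1.22% of all probes tested. At an unadjusted p below 0.05 there was 1 of 9, the Tpst1 probe, against 19.1% of all probes. Adjusted p of the 9 probes ranged from 0.215 for Tpst1 to 0.980 for the distal Tpst2 probe. The median difference (Prss55-/- minus wt, log2 scale) was 0.077 over the member probes and 0.0031 over all tested probes, and 8 of 9 member probes had the higher mean in Prss55-/- testis, against 51.0% of all probes.

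The intervals bound the measured difference between the Prss55-/- and wt arrays, which holds slide and genotype together. Every one of the 9 member probes had a 95% interval lying within 1.5-fold in either direction, with 0.839-fold as the lowest bound (the Ace junction probe) and 1.29-fold as the highest (Tex101). To pass the adjusted threshold, a member would have needed a difference between 1.23-fold (Ly6k, Lypd4 and the distal Tpst2 probe) and 1.70-fold (the Ace junction probe), given its own standard error. The p-values measure the spread between 3 mice of each genotype, and an exact permutation test of 3 against 3 cannot go below 0.1.

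**Figure D1:**
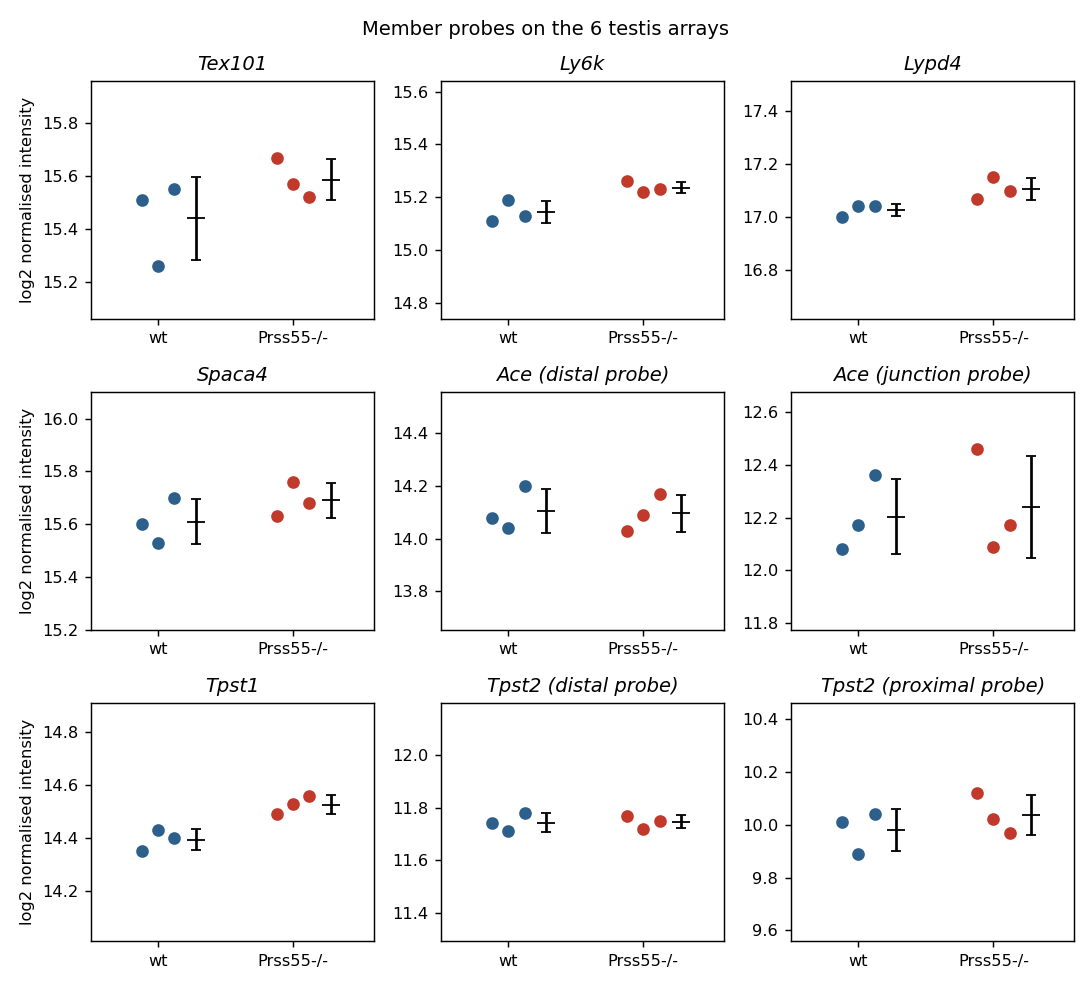
Normalised log2 intensity of the 9 tested member probes, 1 panel per probe and 1 point per array, with wt in blue and Prss55-/- in red. The bar beside each group is its mean ± SD (n = 3), and every y axis spans the same range of log2 units. The points of Ly6k, Lypd4 and Tpst1 do not overlap between genotypes, and those of the other 6 probes do.

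Among the surface proteins, Tex101 gave log2 signals of 15.67, 15.57 and 15.52 on the Prss55-/- arrays and 15.51, 15.26 and 15.55 on the wt arrays. The groups overlapped, and wt replicate 2 was the lowest of the 6 arrays. The means were 15.58 ± 0.076 and 15.44 ± 0.16 (SD, n = 3), a difference of 0.14 on the log2 scale (95% interval -0.08 to 0.36, limma adjusted p = 0.447), and 0.050 without wt replicate 2.

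Ly6k, the partner of TEX101, gave log2 signals of 15.26, 15.22 and 15.23 in Prss55-/- testis and 15.11, 15.19 and 15.13 in wt testis. All 3 Prss55-/- arrays lay above all 3 wt arrays, by a gap of 0.032 between the nearest pair. The difference was 0.09 on the log2 scale (95% interval -0.02 to 0.20, limma adjusted p = 0.330), or 1.07-fold, and the exact permutation test gave p = 0.1, the smallest it allows.

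Lypd4 had signals of 17.07, 17.15 and 17.10 in Prss55-/- testis and of 17.00, 17.04 and 17.04 in wt testis. The groups did not overlap here either, and their nearest arrays differed by 0.030. The difference of 0.08 on the log2 scale (95% interval -0.03 to 0.19) had a limma adjusted p of 0.405.

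Spaca4, which encodes an acrosomal protein, had signals of 15.63, 15.76 and 15.68 in Prss55-/- testis and of 15.60, 15.53 and 15.70 in wt testis. The groups overlapped. Its difference was also 0.08 on the log2 scale (95% interval -0.08 to 0.24, limma adjusted p = 0.560), and ranged from 0.036 (without wt replicate 2) to 0.123 with 1 array left out.

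Complete separation of the kind seen for Ly6k, Lypd4 and Tpst1, with every Prss55-/- array above every wt array, occurred in 3 of 9 member probes and in 13.6% of all tested probes. Markers of round spermatids moved the same way. Of 8 such genes, 7 had the higher mean in Prss55-/- testis, against 51.0% of all probes, and their median difference was 0.145 on the log2 scale. Their summed signal was 277122 to 294150 on the Prss55-/- arrays and 266222 to 274100 on the wt arrays. None of the 8 passed the adjusted threshold, against 1.22% of all probes. An unadjusted p below 0.05 was reached by 5 of the 8, against 19.1% of all probes. Spermatocyte markers had 6 of 9 genes higher (median difference 0.032), and spermatogonial markers 3 of 6 (0.027). Elongating spermatid markers had 3 of 9 higher and 6 lower (median -0.013). In these lists, 2 of 9 spermatocyte, 1 of 6 spermatogonial and 1 of 9 elongating spermatid markers had an unadjusted p below 0.05. The part of any of these cell types in the small positive differences of the members was not tested. In whole testis, more cells of a type and more RNA per cell cannot be told apart.

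Ace was read by 3 probes, and where each probe lies decides what it can say about the germinal and the somatic transcript. The distal probe (chr11:105850398-105850457) and the junction probe above both lie in the 3′ part of the gene, 1040 bases apart, and the array assigns both to transcript variant 2. That part is common to the germinal and somatic transcripts, so the forms cannot be told apart by these probes. The junction probe extends over 1987 bases of the genome, so its 60 bases come from separate exons. No probe named Ace lies further upstream on chromosome 11, in the part that only the somatic transcript holds.

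The distal Ace probe gave log2 signals of 14.03, 14.09 and 14.17 in Prss55-/- testis and 14.08, 14.04 and 14.20 in wt testis. The ranges of the genotypes nearly coincided. The difference was -0.01 (95% interval -0.17 to 0.15, limma adjusted p = 0.945), and its sign turned with 75th percentile scaling (0.001) and with another background correction (0.008).

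The junction probe of Ace gave 12.46, 12.09 and 12.17 in Prss55-/- testis and 12.08, 12.17 and 12.36 in wt testis. Its spread was the widest of the member probes, and Prss55-/- replicate 1 was the highest array. The difference of 0.03 (95% interval -0.25 to 0.32, limma adjusted p = 0.895) became -0.07 without that array. Within arrays, the distance between both Ace probes changed by -0.045 between genotypes (two-sided exact permutation test, p = 0.8, 0.9 adjusted over the 4 pairs of probes compared this way).

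The remaining Ace probe, designed on a cDNA clone of the 3′ end, was placed by the files on chromosome 10 (chr10:115265923-115265982) and not at the Ace gene. It was not well above background on any of the 6 arrays, with log2 signals from 2.92 to 3.18, and was not tested. Markers of endothelium, the source of somatic ACE, had a summed signal of 6978 to 8219 in Prss55-/- and 7988 to 8284 in wt testis. Of 7 tested genes of 8, 6 were lower in mean and 1 higher, and none passed the adjusted threshold.

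Among the sulfotransferases, Tpst1 stood nearest to the threshold of all members. Its probe (chr5:130611395-130611454) gave log2 signals of 14.49, 14.53 and 14.56 in Prss55-/- testis and 14.35, 14.43 and 14.40 in wt testis. All Prss55-/- arrays lay above all wt arrays, with a gap of 0.059. The means of 14.53 ± 0.039 and 14.39 ± 0.041 (SD, n = 3) differed by 0.14 on the log2 scale (95% interval 0.02 to 0.25), or 1.10-fold, with an unadjusted p of 0.031 and an adjusted p of 0.215 from limma.

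Tpst2 lies 17.9 Mb from Tpst1 on chromosome 5 and was read by a pair of probes 138 bases apart. The distal probe (chr5:112744258-112744317) gave log2 signals of 11.77, 11.72 and 11.75 in Prss55-/- testis and of 11.74, 11.71 and 11.78 in wt testis. The wt range enclosed the Prss55-/- range. The difference was 0.003 (95% interval -0.11 to 0.11, limma adjusted p = 0.980).

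The proximal Tpst2 probe (chr5:112744060-112744119) gave 10.12, 10.02 and 9.97 in Prss55-/- testis and 10.01, 9.89 and 10.04 in wt testis, which overlapped. Its difference was 0.06 (95% interval -0.10 to 0.22, limma adjusted p = 0.661), and ranged from 0.015 (without wt replicate 2) to 0.092 with 1 array left out. The distance between both Tpst2 probes changed by -0.056 between genotypes (exact permutation test, p = 0.4, 0.8 adjusted over the 4 pairs).

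The distance from Tpst1 to the distal Tpst2 probe within an array was 2.72, 2.81 and 2.81 in Prss55-/- and 2.61, 2.72 and 2.62 in wt testis. The lowest Prss55-/- array and the highest wt array printed the same to 2 decimals, and the means differed by 0.133. The exact permutation test gave p = 0.1, the smallest possible, and 0.4 adjusted over the 4 pairs. For Tex101 against Ly6k the same measure changed by 0.048 (exact permutation test, p = 0.9, adjusted 0.9), and the genotypes overlapped.

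**Figure D2:**
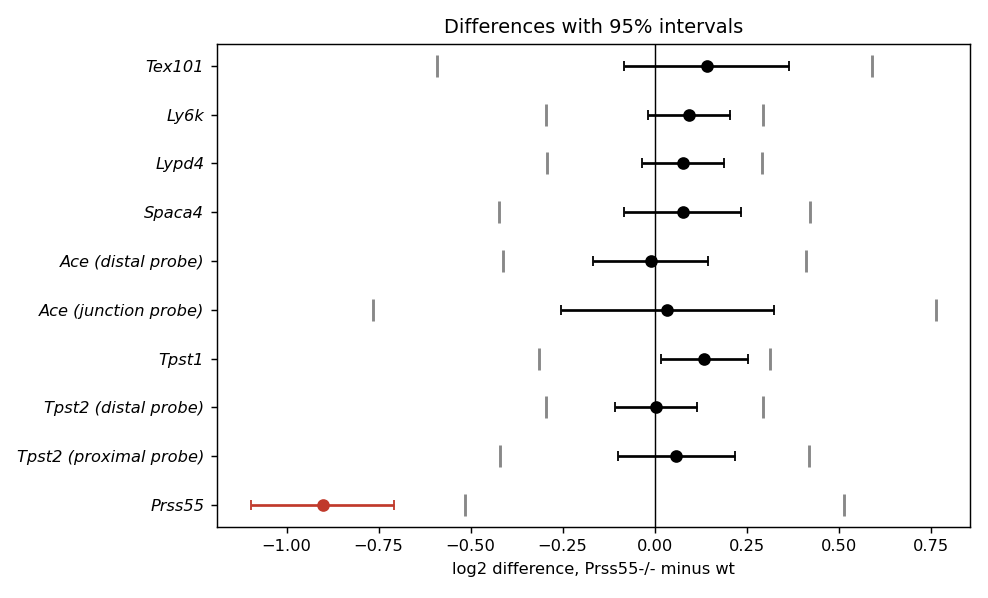
Log2 difference (Prss55-/- minus wt) of each tested member probe and of Prss55, in red, as a point with its 95% interval (3 arrays per genotype). Grey ticks mark the difference each probe would have needed to pass the adjusted threshold, and every member lies inside its ticks while Prss55, at -0.90, lies outside.

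The targeted gene passed the adjusted threshold in the same fit. The Prss55 probe (chr14:64694275-64694333) had log2 signals of 15.08, 14.94 and 14.93 in Prss55-/- and 15.87, 15.78 and 16.01 in wt testis. The difference of -0.90 (95% interval -1.10 to -0.71, limma adjusted p = 0.00995) left 53.5% of the wt signal. Where the probe lies relative to the deleted part was not determined here, so it does not check the deletion. Leaving out 1 array raised its adjusted p to 0.0590 (Prss55-/- replicate 2), 0.0700 (Prss55-/- replicate 3) or 0.0630 (wt replicate 1), and it was 0.0698 by the methods' t-test and 0.100 with the replicate block.

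The 6 arrays also allow a description of which genes moved alike, by Pearson's r over the arrays, some of which share a slide. Signals of Tex101 were most like those of Klhl9 (r = 0.992), Polr2f (0.991) and Map7 (0.990). For Ly6k the nearest were Nbr1 (0.998), Zfp819 (0.997) and H3f3a (0.997), and for the distal Ace probe Utp3 (0.985), Medag (0.984) and Slc3a2 (0.977). With only 6 arrays, each set of nearest genes heads a longer list. Among tested probes with a current symbol, 296, 752 and 67 had r of 0.9 or more with Tex101, Ly6k and Ace. Tex101 and Ly6k, whose proteins associate, had r = 0.268.

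The wider Ly6/uPAR family, which includes snake-toxin-like proteins of immune, nervous and reproductive tissues, was represented by 44 of 55 listed genes, of which 36 were tested. Past the adjusted threshold, 1 gene of 36 rose and 0 fell, against 1.22% of all probes in either direction, and 9 of 36 had an unadjusted p below 0.05, against 19.1% of all probes. It was Pate14, a member of the PATE group of small secreted proteins of the male tract, which the array lists as A630095E13Rik. Pate14 gave log2 signals of 9.24, 9.30 and 9.25 in Prss55-/- and 8.69, 8.82 and 8.87 in wt testis, without overlap. The difference was 0.47 (95% interval 0.32 to 0.62, limma adjusted p = 0.0335), and the call was lost when Prss55-/- replicate 2, Prss55-/- replicate 3, wt replicate 1 or wt replicate 2 was left out, and also with normexp background correction, no filter on dim probes, the replicate block or the methods' t-test. The family had a median difference of -0.02, with 16 genes higher in mean in Prss55-/- testis, the 4 members among them, and 20 lower.

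Members of this family sit in clusters in the genome. The Tex101 and Lypd4 probes are 196.6 kb apart on chromosome 7, with Spaca4 27.3 Mb further along, and Ly6k lies in the Ly6 cluster of chromosome 15. Within 250 kb of Ly6k, 17 named genes were tested by 19 probes and 0 were called, against 1.22% of all probes. Differences ran from -0.40 for Ly6d to 0.37 for Ly6m. Ly6m was not on the family list, so the family counts above leave it out. Gml had differences of 0.25 (95% interval 0.09 to 0.42, limma adjusted p = 0.129) on a probe 16.7 kb away and 0.14 (-0.07 to 0.35, adjusted p = 0.420) on another 19.3 kb away. Gml2, 27.0 kb away, had a difference of 0.29 (0.07 to 0.51, limma adjusted p = 0.173). Around Tex101, 15 genes were tested and 0 called, with differences from -0.23 to 0.12. Around Ace, 11 genes were tested and 0 called, both against the same 1.22% of all probes. Ace3, an Ace-like gene 9.2 kb away, had a difference of 0.25 (95% interval 0.03 to 0.48, limma adjusted p = 0.226). The 250 kb window was chosen after positions were seen.

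Enzymes that build, attach and trim GPI anchors were tested in 32 of 33 cases. Of these, 0 passed the adjusted threshold in either direction, against 1.22% of all probes. An unadjusted p below 0.05 was reached by 3 of 32, against 19.1% of all probes. The median difference was 0.013. The largest measured differences were those of Pigg, an ethanolamine phosphate transferase of the anchor, at 0.44 (95% interval 0.18 to 0.70, limma adjusted p = 0.113), and Pgap1, which removes the inositol acyl chain after attachment, at 0.36 (-0.25 to 0.97, adjusted p = 0.477). Pigg separated the genotypes, with 10.28, 10.24 and 10.38 in Prss55-/- against 9.65, 10.06 and 9.87 in wt testis. The values of Pgap1 overlapped.

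Sulfate activation and supply, the pathway that feeds the sulfotransferases, had 9 of 10 genes tested and 0 called, against 1.22% of all probes. The median difference was -0.006, and 1 of 9 genes, Tpst1, had an unadjusted p below 0.05, against 19.1% of all probes. Apart from Tpst1, the largest measured difference among genes well above background on all 6 arrays was that of Papss1, which makes the sulfate donor, at -0.10 (95% interval -0.22 to 0.03, limma adjusted p = 0.369). Its signals were 9.25, 9.17 and 9.26 in Prss55-/- and 9.33, 9.36 and 9.28 in wt testis, lower in every Prss55-/- array.

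The renin-angiotensin list, which holds Ace with its substrates, receptors and related peptidases, had 22 of 28 genes tested. Of these, 0 were called, against 1.22% of all probes, and the median difference was 0.049. An unadjusted p below 0.05 was reached by 4 of 22, against 19.1% of all probes. Mme, which encodes the peptidase neprilysin, had the lowest adjusted p of the list (difference -0.52, 95% interval -0.73 to -0.30, limma adjusted p = 0.0599), and passed the threshold without Prss55-/- replicate 1. Its signals were 7.37, 7.05 and 7.28 in Prss55-/- and 7.78, 7.73 and 7.73 in wt testis, without overlap. Agt, the angiotensinogen gene, had a difference of -0.49 (95% interval -0.98 to -0.01, limma adjusted p = 0.256) and overlapping groups. Markers of Leydig cells moved with these genes, with 6 of 6 tested genes of 7 lower in mean and a summed signal of 33015 to 52264 in Prss55-/- against 52508 to 60468 in wt testis, and none past the adjusted threshold. Lower in mean too were 8 of 8 macrophage, 5 of 5 peritubular myoid and 6 of 7 endothelial marker genes tested. Of 8 Sertoli genes, 5 were lower and 3 higher. The part of any of these cell types was not tested.

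The list around ADAM3 maturation holds 22 genes, among them Adam3 itself, related ADAM genes, chaperones, proteases and 4 of the members, not all of them known to be needed by ADAM3. Of these, 21 were tested and 0 passed the adjusted threshold, against 1.22% of all probes, with a median difference of -0.024. An unadjusted p below 0.05 was reached by 6 of 21, against 19.1% of all probes. Adam3 itself gave log2 signals of 16.72, 16.49 and 16.51 in Prss55-/- and 16.83, 16.86 and 16.83 in wt testis, lower on every Prss55-/- array. The difference was -0.26 (95% interval -0.44 to -0.09, limma adjusted p = 0.135), and it passed the adjusted threshold without Prss55-/- replicate 1. Adam1a, whose product forms a complex in the endoplasmic reticulum, differed by 0.20 (95% interval 0.02 to 0.38, limma adjusted p = 0.225).

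The widest difference on that list belonged to Rnase10, named after its values were seen, which encodes a secreted protein of the proximal epididymis. Its log2 signals were 7.29, 4.64 and 5.44 in Prss55-/- and 8.60, 8.80 and 8.71 in wt testis, with Prss55-/- replicate 2 not well above background. The limma adjusted p was 0.0926, and the gene passed the threshold with normexp background correction and without Prss55-/- replicate 1. Of 10 epididymal marker genes, 4 were tested, Rnase10 among them. The other 3 were Defb41, with a difference of -0.25, and Cst11 and Lcn9, with 0.32 and 0.53. The summed signal of the list was 554 to 560 in Prss55-/- and 839 to 952 in wt testis, a value that includes Rnase10.

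**Figure D3:**
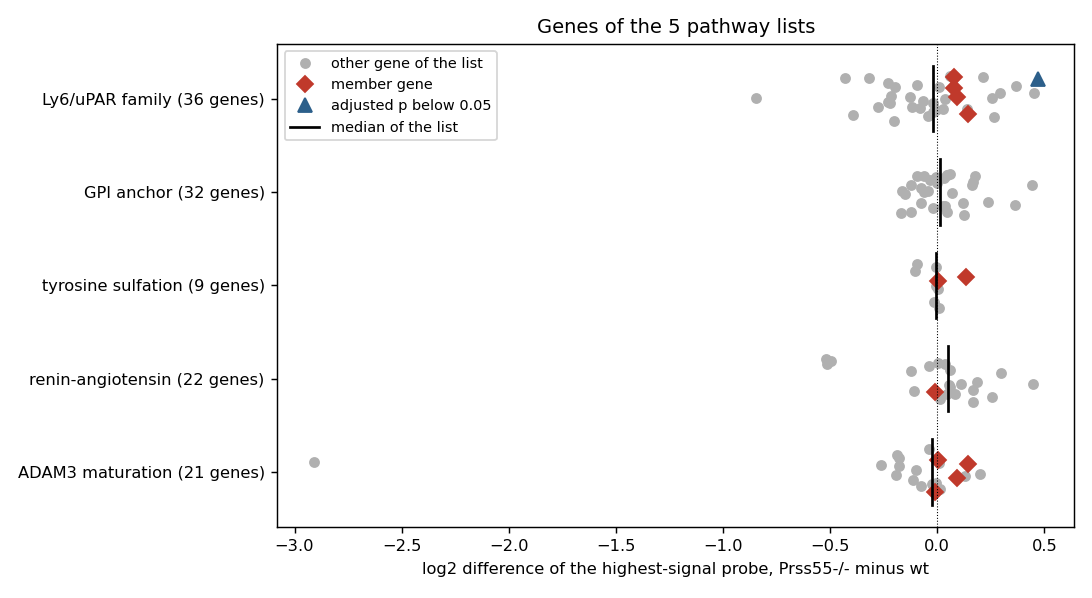
Log2 difference (Prss55-/- minus wt) of every tested gene in the 5 pathway lists, by the probe with the highest signal, with the members as red diamonds, the single gene past the adjusted threshold (Pate14) as a blue triangle and the list median as a black bar. Points are spread vertically only to keep them apart, and the member genes lie between -0.011 and 0.141 while single other genes reach -2.91 and 0.47.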

How the data were processed

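RNA from the testes of 6 mice, 3 of each genotype, was labelled with 1 dye and hybridised to 1 array per mouse. The authors deposited the scanner output (Agilent Feature Extraction 10.7, per the labels), whose processed signal is a linear intensity corrected for background within the array. The deposited log2 matrix served here as an alternative. Well above background were 69.5% to 72.9% of spots per array, with 0 saturated, and the number of arrays limits the precision.

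Control spots were left out, outlier spots were set aside, signals below 1 were set to 1, and the log2 signals were quantile-normalised, as in the methods of the study. Spots of a probe were averaged. Tested probes (28606 of 41174) were those that all 3 arrays of either genotype measured well above background. The genotype difference was tested two-sided with limma 3.58.1 (R 4.3.3), using Benjamini-Hochberg adjustment, in a fit tested on simulated data. Permutation tests used scipy 1.17.1. Each mouse is 1 replicate.

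Current symbols came from RefSeq (GRCm38.p6, for names only) by accession, symbol or a unique synonym, for 33728 of 41174 probes. Coordinates are those of the files (mm9), and no annotation of that build was used. Named genes were the members, Prss55 and, of each pathway list, the genes past the threshold or else the 2 with the largest measured difference on probes well above background on all 6 arrays. In the lists, a gene with several probes was represented by its brightest one. The members and lists were chosen with earlier results of these data known. All 11 marker lists (spermatogonia, spermatocytes, round and elongating spermatids, Sertoli, Leydig, endothelial, peritubular myoid, macrophage, blood and epididymis) had 0 genes past the adjusted threshold. The share over all tested probes was 1.22%.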

Additional observations from a re-analysis of the deposited data

How the results depend on the processing

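The 9 member probes were refitted under 14 alternatives. None of the 126 resulting values passed the adjusted threshold (lowest adjusted p = 0.172), so 0 member probes were called in all of them, and 118 kept their sign. The 8 that turned all belonged to probes with differences near 0. The distal Ace probe turned to 0.001 with 75th percentile scaling and to 0.008 with normexp background correction, and ranged from -0.047 to 0.034 with 1 array left out in turn. Under the same omission the Ace junction probe ranged from -0.073 to 0.113 and the distal Tpst2 probe from -0.014 to 0.023. The median over the member probes ranged from 0.036 (without wt replicate 2) to 0.089 with 1 array left out.

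The share of all probes past the threshold was 0.333% with no filter on dim probes (137 probes), 0.283% by the methods' t-test after adjustment (81) and 0.0454% with the replicate block (13), against 348 probes in the reported fit. It was 2.95% without Prss55-/- replicate 1, 0.220% without replicate 2 and 0.133% without replicate 3 of that genotype, 0.241% without wt replicate 1 and 0.458% without wt replicate 2. The study speaks of pairs of wt and Prss55-/- mice for these arrays, without saying how they were matched. The labels do not say that a replicate number marks a pair of mice, and the deviations of same-numbered mice correlated at -0.054, -0.023 and -0.112. The adjusted p of Prss55, at a difference of -0.902, was 0.100 with the replicate block and 0.0698 by the t-test, and its difference ranged from -0.957 to -0.838 with 1 array left out.

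The Ly6/uPAR count fell from 1 to 0 with normexp background correction, no filter, the replicate block and the t-test, and ranged from 0 to 2 with 1 array left out. The ADAM3 maturation count was 1 (Rnase10) with normexp background correction and ranged from 0 to 2 with 1 array left out, and the renin-angiotensin count from 0 to 1. With the slide as a random block, 0 member probes were called, as in the reported fit. No slide held both genotypes, so this block cannot separate slide from genotype. The cause of these shifts was not tested.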
